A study of Bos taurus with 36 samples.

Results

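LRP2, MSTN, NEB, FZD5 and SLC34A2 are genes whose mRNA stood higher in 4× glands than in 2× glands on day 21 of lactation, and these day 21 values were the first ground of their choice. They were followed in mammary biopsies of 6 multiparous Holstein cows under unilateral frequent milking (UFM), in which the right side of the udder was milked 4 times a day (4×) and the left side 2 times a day (2×) through day 21, after which both sides were milked 2×. Biopsies were taken on day 21, while UFM was still applied, and on days 23 and 40, after it had ceased, so that the 36 arrays form 6 groups of 6: 4× day 21, 2× day 21, 4× day 23, 2× day 23, 4× day 40 and 2× day 40. The sample labels give a replicate number, which is read here as the cow. Frequent milking was on the right in each of the 6 cows, so side and milking frequency cannot be told apart. The day 23 samples came from fore glands and those of the other days from rear glands, so position and day cannot be told apart in a step to or from day 23.

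The 5 genes were measured by 9 of the 24016 non-control probe sets of the GeneChip Bovine Genome Array. A probe set is a group of short probes read as a single value, given here on the log2 scale, on which a difference of 1 is a doubling. The array's annotation gives 6 of the 9 to a single symbol, of which 2 are for MSTN, 3 for NEB and 1 for SLC34A2, and it gives 0 to LRP2 or FZD5. The other 3, for LRP2, FZD5 and SLC34A2, carry their names from the study's own gene table, which was itself chosen on these arrays, and their identity was not checked against a sequence here. In what follows the second MSTN probe set is the one in that table and the first is the other, and the first SLC34A2 probe set is the annotated one and the second that of the table. The SLC34A2 probe sets correlated at r = 0.92 over the 36 arrays.

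Each of the genes stands in that table, which held only genes whose 4× minus 2× difference shrank or changed sign by day 23. The day 23 values therefore bore on the choice as well, and a day 23 difference near 0 or below was partly fixed by it. So values of day 21 and day 23, and steps to or from these days, are described here with no test, and of the differences between glands only that of day 40 was tested for the members.

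LRP2, also called megalin, is a very large endocytic receptor of absorptive epithelia that takes vitamin carriers, hormones and lipoproteins into the cell. MSTN (myostatin) is a secreted member of the TGF-β family that restrains skeletal muscle growth, and its loss gives the double-muscled phenotype of some cattle breeds. NEB (nebulin) is a giant protein that runs along the thin filaments of skeletal muscle. FZD5 is a Frizzled receptor for Wnt ligands, and SLC34A2 is a sodium-dependent phosphate cotransporter of the apical membrane of epithelia, known from intestine, lung and the lactating mammary gland. In lactation, phosphate enters milk in large amounts with calcium and casein, and receptors and transporters of the secretory epithelium govern what passes between blood, cell and milk.

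The tissue carried the marks of lactating mammary gland in every group. All 6 markers of secretory epithelium were measured, the lowest being the casein CSN1S1 with a mean log2 value of 13.3, and the list mean lay between 14.04 and 14.35 in the 36 arrays. MSTN and NEB are best known from skeletal muscle, and 13 of 14 muscle markers were measured. The mean of these 13 lay between 5.41 and 5.63 in 4× glands and between 5.38 and 5.57 in 2× glands on day 21, and 5 of them (ACTA1, MYL1, TNNI2, ATP2A1 and CA3) averaged less than 5, while MYH7 averaged 8.74 and CKM 7.70. The muscle list differed between glands by 0.01 ± 0.07 on day 21 (SD, n = 6 cows). In a biopsy, fewer cells of a type and less RNA per cell cannot be told apart.

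Array medians lay between 6.04 and 6.15. The array of cow 1's 2× gland on day 21 stood apart from the other 5 of its group in 6.31% of all probe sets, by a gap to the nearest cow wide beside the group's range (Dixon's test), against 0.321% to 2.73% for the other 35 arrays in their groups. That array held the lowest 2× value of day 21 for 8 of the 9 member probe sets, so values are given with and without cow 1. The secretory list was 0.285 higher in cow 1's 4× gland than in that 2× gland, and its part in the members' values was not tested.

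**Figure D1:**
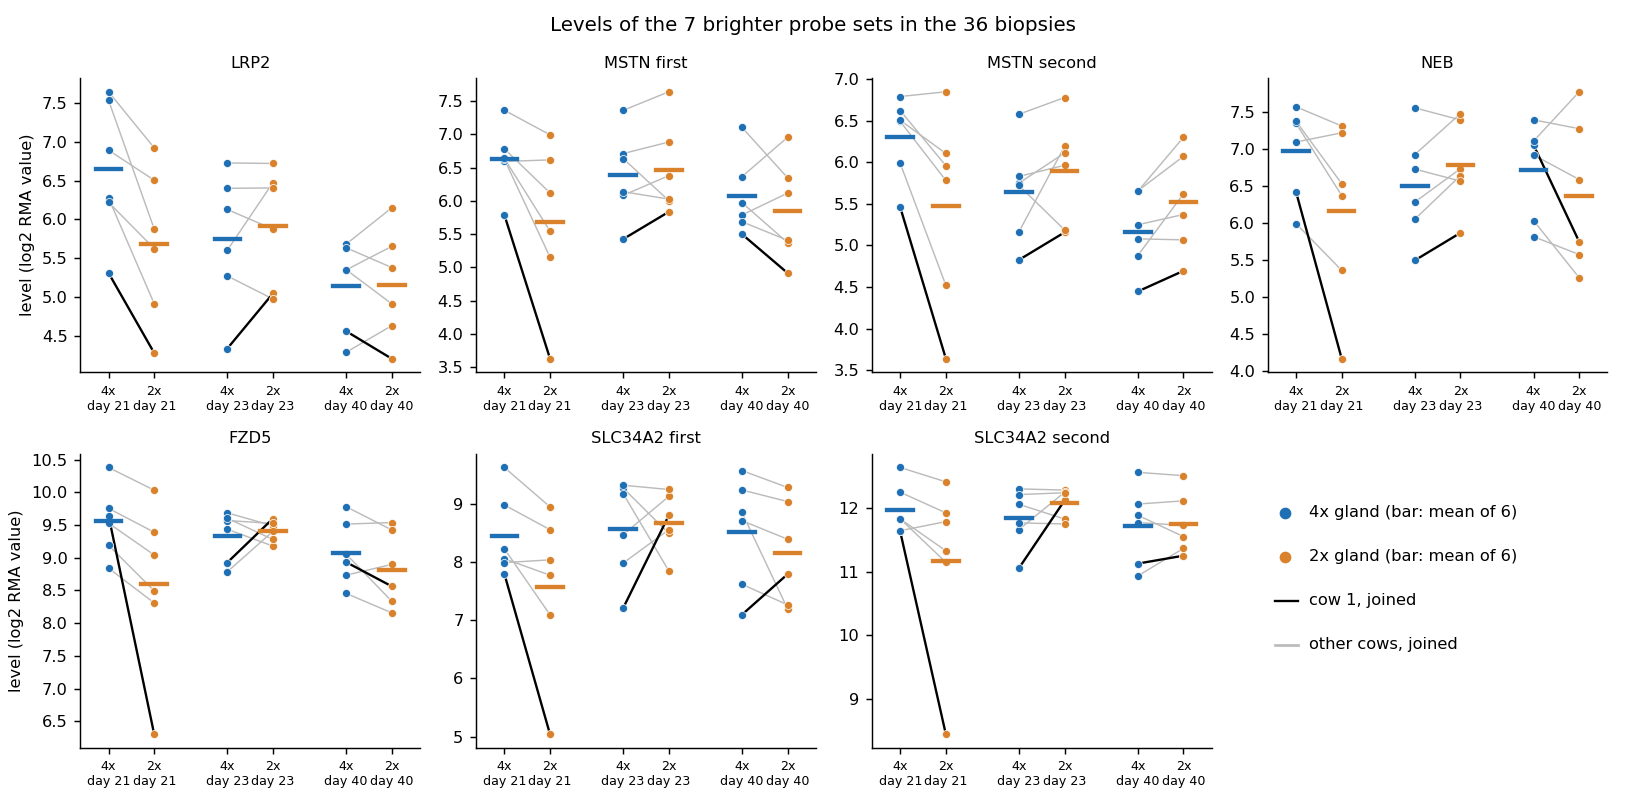
Log2 levels (vertical axis) of the 7 brighter member probe sets in the 36 biopsies, by gland and day (horizontal axis), with a line joining the 2 glands of a cow and a bar at the mean of 6. Cow 1 (black) holds the lowest 2× point of day 21 in all 7 panels, 8.44 for the second SLC34A2 probe set and 6.30 for FZD5, and the glands overlap in range on each day.

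Over all 6 cows, the LRP2 difference had the lowest SD of the 7 brighter probe sets during UFM. Its level on day 21 ran from 5.31 through a median of 6.58 to 7.65 in 4× glands, against 4.28, 5.75 and 6.92 in 2× glands. The ranges of the glands overlapped, and within each cow the 4× gland was the higher, by 0.39 in cow 5 to 1.66 in cow 6. Differential expression (4× minus 2×) averaged 0.96 ± 0.48 (SD, n = 6), or 1.94-fold, and 0.95 without cow 1. This difference is the one the genes were chosen for, and no test is given for it.

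On days 23 and 40 the LRP2 levels of the glands overlapped over most of their range. On day 23 its lowest, median and highest levels were 4.34, 5.87 and 6.73 in 4× glands, against 4.98, 6.14 and 6.72 in 2× glands. On day 40 they were 4.29, 5.35 and 5.68 in 4× glands and 4.21, 5.15 and 6.15 in 2× glands. The 4× gland was the higher in 3 of 6 cows on each of these days. Differential expression was −0.17 on day 23, and on day 40 it was −0.01 (SE 0.17, adjusted p = 0.974, limma on the paired differences, Benjamini-Hochberg over 24016 probe sets).

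LRP2 had lower means on day 40 than on day 23 in both glands. In 4× glands it averaged 5.15 ± 0.58 on day 40 and 5.75 ± 0.87 on day 23, lower on day 40 in 4 of 6 cows. In 2× glands it averaged 5.16 ± 0.71 on day 40 and 5.92 ± 0.75 on day 23, lower on day 40 in 6 of 6 cows. The day 40 minus day 23 difference was −0.60 ± 0.59 in 4× glands and −0.76 ± 0.55 in 2× glands, and without cow 1 it was −0.76 and −0.75.

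Against day 21, LRP2 was lower on both later days in every 4× gland. Its 4× level was lower on day 23 than on day 21 in 6 of 6 cows, by a mean of −0.90 ± 0.66, and lower on day 40 in 6 of 6 cows, by −1.50 ± 0.56. The 2× level on day 23 was higher in 4 cows and lower in 2, with a mean of 0.23 ± 0.50, and on day 40 it was lower in 5 of 6, by −0.53 ± 0.59. Ordered by mean, LRP2 stood at 6.65 in 4× day 21, then 5.92 in 2× day 23, 5.75 in 4× day 23, 5.69 in 2× day 21, 5.16 in 2× day 40 and 5.15 in 4× day 40, and this order was the same without cow 1. Each neighbouring pair in it differed by less than 1 SD.

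MSTN was read by 2 probe sets that correlated at r = 0.88 over the 36 arrays. In the first, levels on day 21 ran from 5.79 through 6.63 to 7.36 in 4× glands, against 3.63, 5.83 and 6.99 in 2× glands. In the second they were 5.46, 6.50 and 6.79 in 4× glands, against 3.64, 5.87 and 6.85 in 2× glands. The glands overlapped in both, and 5 of 6 cows had the higher value in the 4× gland, the exceptions being cow 2 at −0.02 in the first and cow 4 at −0.06 in the second. Differential expression was 0.96 ± 0.79 and 0.83 ± 0.69, and without cow 1 it was 0.72 ± 0.59 and 0.64 ± 0.56.

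After UFM the 2 MSTN probe sets had means of the same sign on day 23 and of opposite sign on day 40. On day 23 differential expression was −0.07 in the first and −0.25 in the second. By day 40 it was 0.22 (SE 0.21) in the first, with 4 of 6 cows higher in the 4× gland and 0.14 without cow 1, but −0.36 (SE 0.19) in the second, with 5 of 6 cows lower there. The adjusted p-values for day 40 were 0.542 and 0.266 (limma). Within each cow the first probe set gave the more positive difference on day 40 in 6 of 6 cows, by 0.58 ± 0.41, against 3 of 6 cows on day 23 and 5 of 6 on day 21. The gap was noticed in the values and has no test, and whether the probe sets read different parts of the transcript was not tested.

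MSTN had lower means on day 40 than on day 23 in both glands and both probe sets. In 4× glands the first averaged 6.07 ± 0.59 on day 40 and 6.39 ± 0.66 on day 23, and the second 5.16 ± 0.47 on day 40 and 5.64 ± 0.60 on day 23. In 2× glands the first averaged 5.85 ± 0.75 on day 40 and 6.46 ± 0.69 on day 23, and the second 5.52 ± 0.60 on day 40 and 5.90 ± 0.63 on day 23. The second probe set in 4× glands was the lower on day 40 in 6 of 6 cows, by −0.49 ± 0.31, and the first in 2× glands in 5 of 6, by −0.61 ± 0.62. Relative to day 21, the second probe set in 4× glands was lower on day 23 in 6 of 6 cows (−0.66 ± 0.42) and on day 40 in 6 of 6 cows (−1.15 ± 0.32), as LRP2 was. In 2× glands the same steps were 0.42 ± 0.95 and 0.05 ± 0.81, with 3 cows up and 3 down in both.

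NEB was read above a mean of 5 by 1 of its 3 probe sets. On day 21 it ran from 5.99 through 7.22 to 7.57 in 4× glands, against 4.17, 6.45 and 7.31 in 2× glands. The higher value was in the 4× gland of 5 of 6 cows, with cow 5 at −0.12 and cow 1 at 2.25. Differential expression was 0.81 ± 0.82, and 0.52 ± 0.45 without cow 1. The other 2 NEB probe sets lay between 3.16 and 4.27 in all 36 arrays, and their day 21 differences were 0.10 ± 0.34 and −0.0062 ± 0.19.

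The mean NEB difference was below 0 on day 23 and above 0 on day 40. On day 23 differential expression was −0.27, with the 4× gland lower in 4 of 6 cows. On day 40 it was 0.35 (SE 0.23, adjusted p = 0.353 in limma), with the 4× gland higher in 5 of 6, from −0.67 in cow 4 to 1.31 in cow 1. Without cow 1 the day 40 difference was 0.16, and without cow 4 it was 0.56. Over the runs that each left out 1 cow, the unadjusted limma p ran from 0.0244, without cow 4 (adjusted p = 0.265), to 0.361, without cow 1. Only 1 of these runs gave a p under 0.05. In 2× glands NEB was higher on day 23 than on day 21 in 6 of 6 cows, by 0.62 ± 0.70 and by 0.40 without cow 1.

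FZD5 was higher in the 4× gland of every cow on day 21, but the size of its mean rested on cow 1. It ran from 8.84 through 9.59 to 10.38 in 4× glands, against 6.30, 8.77 and 10.03 in 2× glands. The 4× gland was higher in 6 of 6 cows, by 0.35 to 0.69 in cows 2 to 6 and by 3.34 in cow 1. Differential expression was 0.96 ± 1.17 with all cows, or 1.95-fold, and 0.49 ± 0.14 without cow 1. Among cows 2 to 6 the FZD5 difference had the lowest SD of the 9 member probe sets. Cow 1's 2× gland of 6.30 stood 6.69-fold below the median of the other 5 cows, while its 4× gland, at 9.645, lay within the range of the others.

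Of the 6 groups FZD5 varied least among cows in 2× day 23, with an SD of 0.16. Levels on day 23 were 8.79 to 9.69 in 4× glands and 9.18 to 9.60 in 2× glands, and on day 40 they were 8.46 to 9.78 in 4× glands and 8.16 to 9.54 in 2× glands. Differential expression was −0.08 on day 23, and on day 40 it was 0.26 (SE 0.26, adjusted p = 0.557 in limma). Between these days FZD5 in 2× glands averaged 8.82 ± 0.57 on day 40 and 9.41 ± 0.16 on day 23, a difference of −0.59 ± 0.61, and lower on day 40 in 4 of 6 cows. In 4× glands the same step was −0.26 ± 0.42.

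SLC34A2 was measured by 2 probe sets, whose levels are not compared with each other. In the second, day 21 levels ran from 11.6 through 11.8 to 12.6 in 4× glands, against 8.44, 11.6 and 12.4 in 2× glands. In the first they ran from 7.80 through 8.15 to 9.63 in 4× glands, against 5.04, 7.91 and 8.95 in 2× glands. The glands overlapped in both, and both placed 5 of 6 cows higher in the 4× gland, with cow 5 at −0.14 and −0.05. Differential expression was 0.80 ± 1.21 in the second and 0.87 ± 1.01 in the first, and without cow 1 it was 0.32 ± 0.31 and 0.50 ± 0.44. In cow 1 the 2× gland stood 10.2-fold below the median of the other 5 cows in the second probe set and 8.01-fold in the first.

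After UFM the 2× gland of cow 1 was the higher in SLC34A2. In the first probe set the difference of this cow was 2.76 on day 21, −1.60 on day 23 and −0.70 on day 40. Over all cows that probe set gave −0.11 ± 1.06 on day 23, with values from −1.60 to 1.33, and 0.35 ± 0.75 on day 40, where 5 of 6 cows were higher in the 4× gland. Without cow 1 its day 40 difference was 0.56 ± 0.61, with all of the other 5 cows higher in the 4× gland and an unadjusted limma p of 0.0307 (adjusted p = 0.366), beside 0.50 on day 21 in the same cows. Without cow 3, whose difference was 1.66, it was 0.0933. In the second probe set the means were −0.24 ± 0.49 on day 23 and −0.03 ± 0.25 on day 40. With all cows the adjusted p-values on day 40 were 0.522 in the first and 0.955 in the second. In both probe sets the mean of 2× day 23 was the highest of the 6 groups and that of 2× day 21 the lowest, and without cow 1 the lowest was still 2× day 21, while the highest in the first probe set was 4× day 23 at 8.85, followed by 4× day 40 at 8.80 and 2× day 23 at 8.66.

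**Figure D2:**
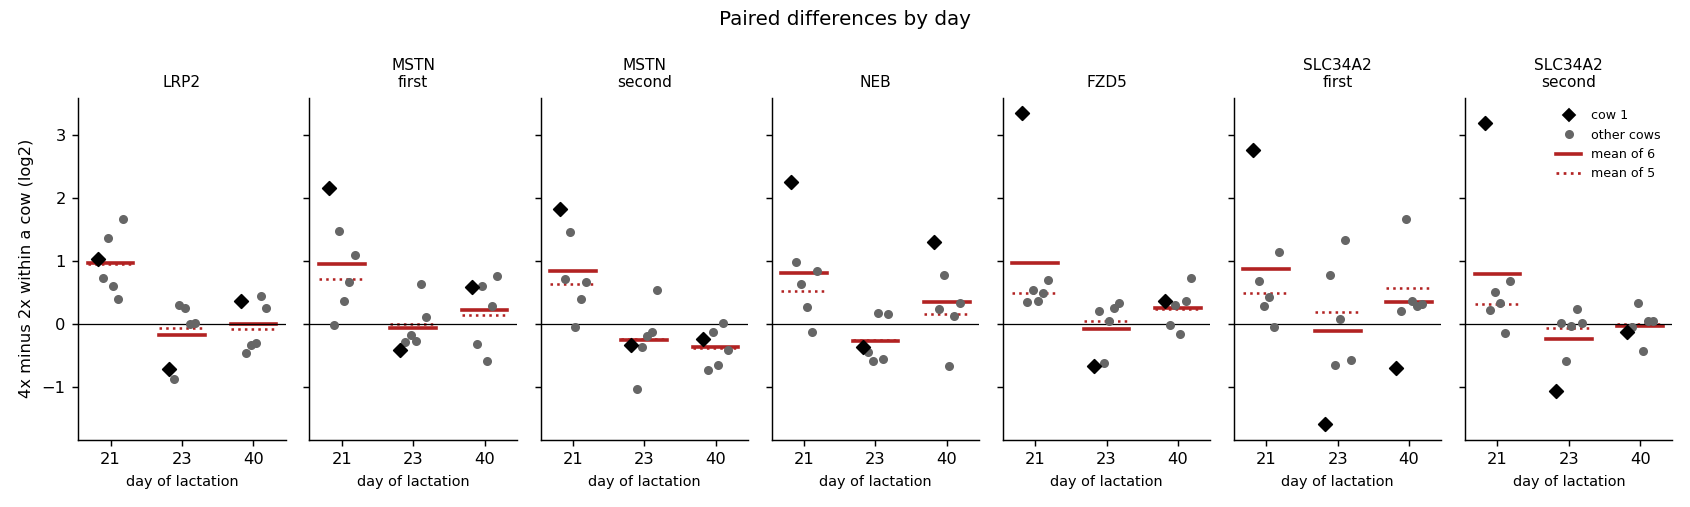
Differential expression (4× minus 2×, log2, vertical axis) within each cow, by day of lactation (horizontal axis: 21, 23, 40), for the 7 brighter member probe sets, with the mean of 6 cows (solid) and of 5 cows without cow 1 (dotted). On day 21 the dotted and solid lines meet in LRP2 (0.95 and 0.96) and lie far apart in FZD5 (0.49 and 0.96). On days 23 and 40 the means of 6 cows lie between −0.36 and 0.35. Those of 5 cows lie between −0.38 (second MSTN probe set, day 40) and 0.56 (first SLC34A2 probe set, day 40).

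Across the members, 0 of 9 probe sets passed an unadjusted p of 0.05 for differential expression on day 40, against 20.4% of all probe sets tested. This count rests on the spread shared by the 3 days, so day 21 and day 23 values, which bore on the choice, enter its error. For FZD5 the SD of the difference was 1.17 on day 21, with cow 1 at 3.34, and 0.31 on day 40. Its SE for day 40 was 0.26 with the shared spread and 0.11 with that of day 40 alone. The count is therefore not read as an absence of difference on day 40. With the spread of day 40 alone, which called 5091 probe sets in place of 4910, the second MSTN probe set had an unadjusted limma p of 0.00448 and FZD5 of 0.0323, with adjusted p-values of 0.177 and 0.210. With arrays centred on their median, the second MSTN probe set was at 0.0449. From day 23 to day 40, 6 of 9 probe sets had a negative mean step in 4× glands and 9 of 9 did in 2× glands. Of all 24016 probe sets, 13063 had a positive mean step in 4× glands and 10521 in 2× glands. At an unadjusted limma p under 0.05 in either direction, 6.55% of all probe sets were called for this step in 4× glands and 8.08% in 2× glands. Nothing is read from these counts and shares for the members, whose day 23 values bore on the choice. In no member did neighbouring groups in the order of means differ by as much as 1 SD between cows.

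Of the other genes in each member's pathway, those with an unadjusted p under 0.05 on day 21 lay in both directions in every list but Wnt, where all 3 were lower. The lists were endocytic receptors and their ligands for LRP2 (13 of 23 genes measured), myostatin's receptors, antagonists and signalling for MSTN (12 of 23), thin filament and sarcomere proteins for NEB (19 of 25), Wnt signalling for FZD5 (24 of 39) and phosphate handling for SLC34A2 (16 of 20). At an unadjusted p under 0.05, 8.02% of all probe sets were higher and 7.91% lower in 4× glands on day 21, and 0 passed the adjustment. By the same count, higher and lower genes were 1 and 2 in the endocytic list, 2 and 1 in the myostatin list, 2 and 1 in the sarcomere list, 0 and 3 in the Wnt list, and 1 and 2 in the phosphate list. The median differences of the lists lay between 0.01 (Wnt) and 0.09 (myostatin), beside 0.02 over all probe sets.

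Among LRP2's relatives, the lipoprotein receptor VLDLR differed by 0.43 (SE 0.16, adjusted p = 0.208) on day 21, higher in 5 of 6 cows and 0.15 without cow 1. The sorting receptor SORL1 went the other way at −0.56 (SE 0.17, adjusted p = 0.181), lower in 6 of 6 cows and −0.30 without cow 1, and RXRA, the nuclear receptor partner of vitamin A and D receptors, was at −0.18 (SE 0.081). SORL1 was also lower on day 40, at −0.46 (SE 0.17, adjusted p = 0.191) in 5 of 6 cows and −0.28 without cow 1, a day on which LRP2 was at −0.01. In the myostatin list the type II activin receptors, which bind myostatin, had opposite signs on day 21, ACVR2A at 0.27 (SE 0.12) and ACVR2B at −0.32 (SE 0.14), but without cow 1 ACVR2B was at −0.11 and ACVR2A at 0.25. The ACVR2A probe set was dim, with a mean log2 value of 4.37. INHA, the inhibin alpha subunit, was at 0.18 (SE 0.075), higher in 6 of 6 cows and 0.11 without cow 1.

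In the sarcomere list the muscle proteins nearest to NEB in size of difference were MYBPC1, a myosin-binding protein, at 0.84 (SE 0.28), and TMOD4, which caps the thin filament's slow-growing end, at 0.75 (SE 0.27). Both were higher in 4 of 6 cows, and without cow 1 they were at 0.44 and 0.29. The tropomyosin TPM2 was at −0.32 (SE 0.15). MYBPC1 is also in the study's table of genes higher in 4× glands on day 21, so it is not independent of that choice. In cow 1 the skeletal muscle marker list as a whole differed by 0.06, NEB by 2.25 and MSTN by 2.16 and 1.82. Of the 13 markers in that list 5 were dim, and the part of muscle in these values was not tested.

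The 3 Wnt genes with the smallest p on day 21 were lower in 4× glands, while 13 of the 24 measured genes of that list had a positive difference. The receptor FZD1 was at −0.63 (SE 0.20, adjusted p = 0.181) in 5 of 6 cows and −0.35 without cow 1. On day 40 it was at −0.49 (SE 0.20, adjusted p = 0.201) in 6 of 6 cows and −0.33 without cow 1. DKK3, of the Dickkopf family of secreted Wnt modulators, was at −0.30 (SE 0.12) and −0.10 without cow 1, and APC, which marks β-catenin for destruction, at −0.25 (SE 0.10). In the phosphate list PTHLH, the parathyroid hormone-related protein that the lactating gland secretes, was at 0.71 (SE 0.22, adjusted p = 0.181), higher in 6 of 6 cows and 0.31 without cow 1. ENPP1, which makes pyrophosphate, was at −0.58 (SE 0.14, adjusted p = 0.180) and −0.40 without cow 1, and PDZK1, a scaffold of apical transporters, at −0.67 (SE 0.29) and −0.21 without cow 1. The PDZK1 probe set was dim, with a mean log2 value of 4.40.

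On day 23 the counts of higher and lower list genes were 0 and 1 in the endocytic list (RBP4, the retinol carrier, at −0.20), 0 and 1 in the Wnt list (FZD10 at −0.29), and 0 in the other 3, beside 333 higher and 302 lower of all 24016 probe sets, or 2.64% in all. Both genes named for day 23 were dim, RBP4 with a mean log2 value of 4.79 and FZD10 of 4.56. On day 40 they were 2 and 4 in the endocytic list, 1 and 0 in the myostatin list, 2 and 1 in the sarcomere list, 2 and 3 in the Wnt list, and 1 and 0 in the phosphate list, beside 2783 higher and 2127 lower of all probe sets. LPIN1, ATP13A4, MYBPC1 and OSGIN2, named genes of the same table that were higher in 4× glands on day 21, had differences of 0.93, 0.83, 0.84 and 0.79, and 0.50, 0.33, 0.44 and 0.47 without cow 1. A hypothetical protein and an unnamed transcribed locus that the table also holds as higher are not included. In cow 1 alone the mean of the 4 was 2.90, and in the other cows it lay between 0.0081 and 1.16.

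**Figure D3:**
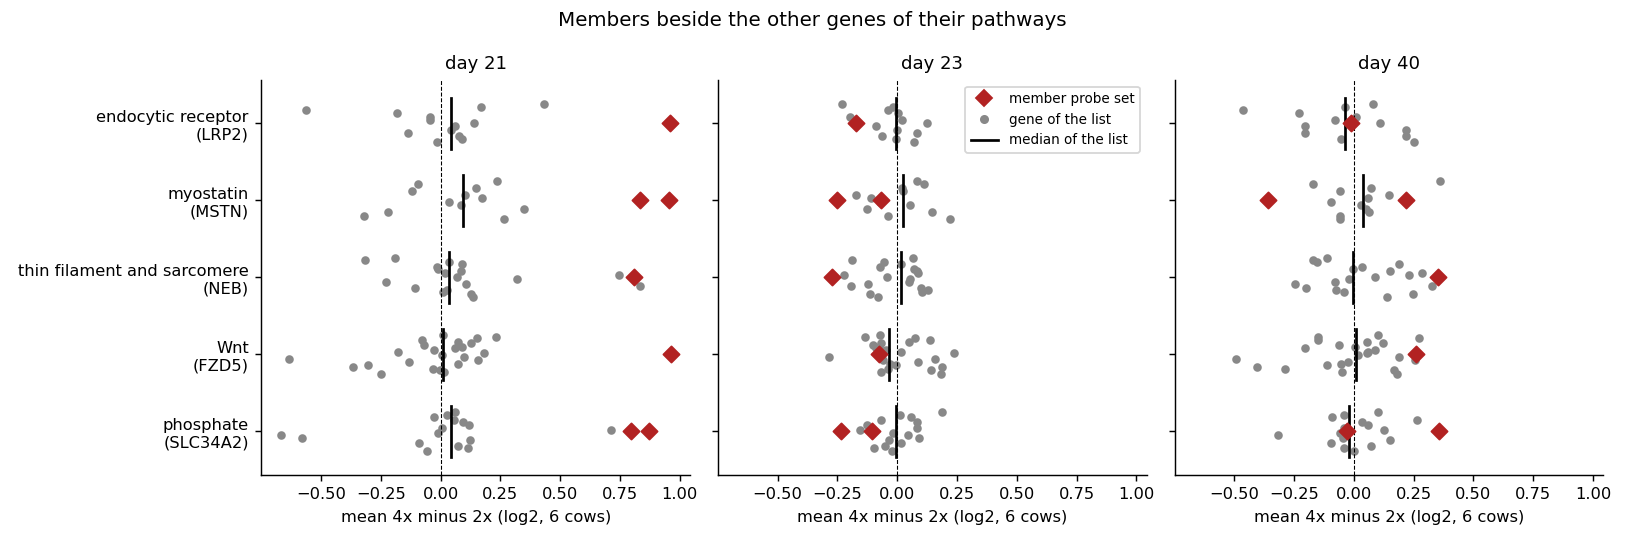
Mean differential expression (4× minus 2×, log2, horizontal axis) of the brighter member probe sets (diamonds) and of the measured genes of the 5 pathway lists (dots, 1 probe set a gene, with a bar at the list median) on days 21, 23 and 40. On day 21 the members lie at 0.80 to 0.96 and the list medians between 0.01 and 0.09.

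The members co-varied to unequal degrees across the arrays. Over 36 arrays, which share 6 cows and are not independent, FZD5 and SLC34A2 were most alike, with r = 0.80 (Spearman's rho 0.69) for the first SLC34A2 probe set and 0.87 (rho 0.74) for the second. MSTN and NEB followed at 0.70 (rho 0.60). LRP2 was at 0.55 with MSTN, 0.52 with NEB, 0.58 with FZD5 and 0.37 with SLC34A2, and NEB with SLC34A2 was at 0.45. LRP2 stood at 0.66 with the second MSTN probe set.

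Each of these r was smaller over the arrays of days 23 and 40 than over all 36. Over the 24 arrays of days 23 and 40, FZD5 with SLC34A2 stood at 0.64 and 0.69, LRP2 with FZD5 at 0.56, LRP2 with MSTN at 0.49 and MSTN with NEB at 0.52, while MSTN with FZD5 was at 0.25, MSTN with SLC34A2 at 0.34, NEB with FZD5 at 0.32 and NEB with SLC34A2 at 0.14. Leaving out only cow 1's 2× array of day 21 gave 0.66 for FZD5 with SLC34A2, 0.39 for MSTN with FZD5 and 0.21 for NEB with SLC34A2. Removing the mean of each group left 0.79, 0.52 and 0.40 for the same pairs.

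**Figure D4:**
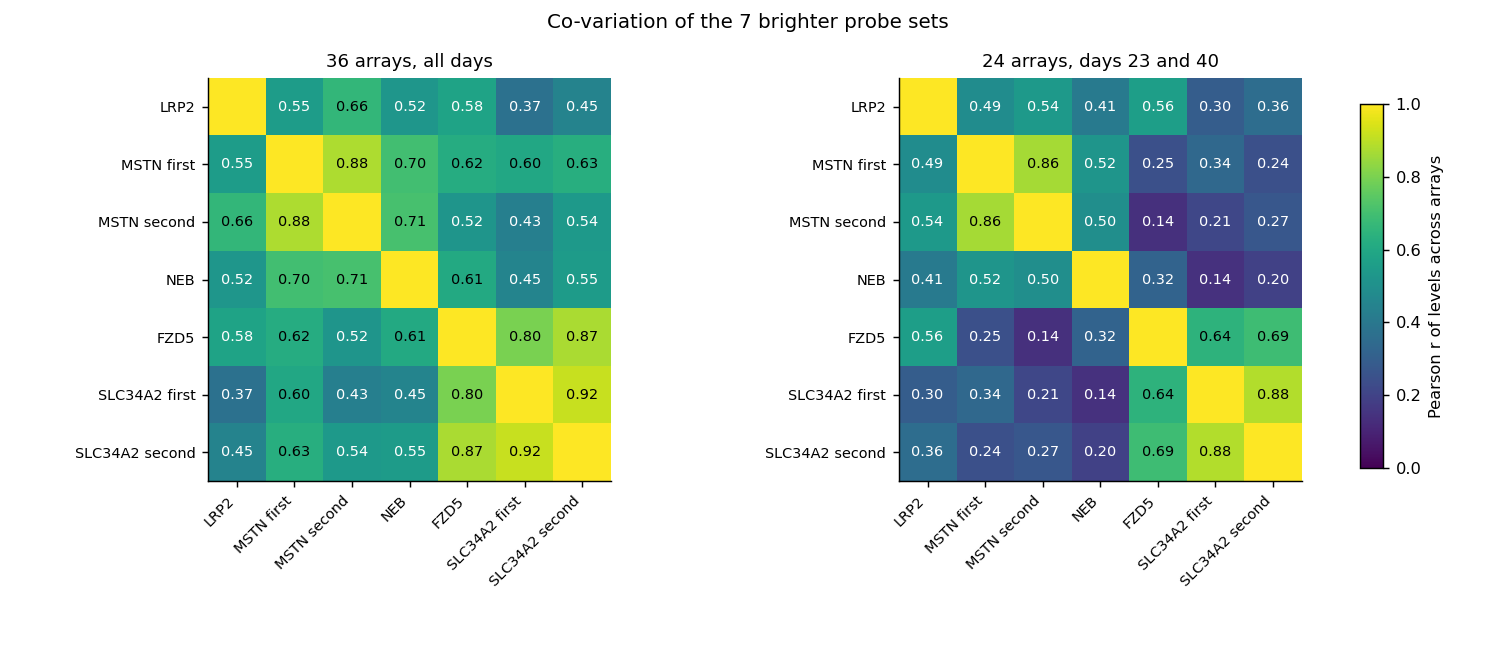
Pearson r of log2 levels between the 7 brighter member probe sets over all 36 arrays (left) and over the 24 arrays of days 23 and 40 (right), each cell giving r for the pair on its axes. FZD5 and both SLC34A2 probe sets have r of 0.64 to 0.88 among themselves on the right, while MSTN and NEB with SLC34A2 lie between 0.14 and 0.34.

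The likeness of other genes was ranked over the 10230 annotated probe sets whose mean reached 5. The genes most alike to each member over the 36 arrays were as follows. For LRP2 they were XPO4, a nuclear export receptor (r = 0.78), THBD, the thrombin receptor thrombomodulin (0.77), and CLINT1, a clathrin adaptor (0.76). For the first MSTN probe set they were ENO4, an enolase, ZAP70, a kinase of T cell receptor signalling, and FGF1, a fibroblast growth factor, each at 0.80. Over the 24 later arrays LRP2's likeness was 0.77 to THBD, 0.69 to XPO4 and 0.67 to CLINT1. The MSTN values were 0.66 to 0.68 there.

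For NEB the most alike genes were POLD2, a DNA polymerase subunit (0.87), ALOX15, a lipoxygenase (0.85), and SLC39A9, a zinc transporter (0.84). FZD5 was most like CMTM6 (0.91), UBE2F (0.88) and TECTB (0.88), which stood at 0.77, 0.73 and 0.73 over the later arrays. The second SLC34A2 probe set, the brighter of its pair, was most like CMTM6 (0.94), the transcription factor HLF (0.93) and the signal recognition particle receptor subunit SRPRA (0.92). CMTM6 thus stood first for FZD5 and for the second SLC34A2 probe set over the 36 arrays. It was not among the 3 most alike genes of the first SLC34A2 probe set, where SRPRA was (0.90). Without cow 1's 2× array of day 21, the values for FZD5 were 0.83, 0.76 and 0.75. For the second SLC34A2 probe set they were 0.83, 0.83 and 0.87, so that SRPRA stood above CMTM6.

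Levels of the members ran differently against the marker lists. Over the 36 arrays the skeletal muscle list had r of 0.03 with the first MSTN probe set, −0.07 with the second and −0.02 with NEB, and of −0.27 with FZD5, or −0.42 without cow 1's 2× array of day 21. With the secretory list r was 0.62 for the second SLC34A2 probe set, 0.51 for FZD5 and 0.45 for NEB, and without that array it was 0.23, 0.10 and 0.18. The myoepithelium list, the contractile cells around the alveoli, ran against all members, from −0.22 with LRP2 to −0.44 with the first MSTN probe set, and its own difference on day 21 was −0.23 ± 0.37. The endothelium list had r of −0.55 with NEB, and −0.52 without that array. With the other members its r was −0.29 to −0.07, and −0.21 to 0.07 without that array. The leucocyte list had r of 0.17 to 0.44, highest with the second MSTN probe set, at 0.37 without that array. The fibroblast list had r of 0.12 to 0.37 and the adipocyte list of 0.11 to 0.44, the highest of these with the second SLC34A2 probe set, at 0.01 without that array. The part of these cell types in the members' values was not tested.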

How the data were processed

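The values used were log2 signals of 24128 probe sets on 36 arrays, which the authors made from GeneChip probe intensities by background correction, normalization and summary with RMA and deposited. The version of RMA is not given in the sources used here. 112 control probe sets were left out and 24016 tested, of which 13292 have 1 symbol in the annotation, 86 several and 10638 none. Differential expression was the 4× minus 2× difference within a cow, fitted with limma 3.58.1 in R 4.3.3 as a mean for each of 3 days with a shared spread over 18 differences, and the spread of each day alone as an alternative. Days 40 and 23 were compared within glands on all 36 arrays with cow as a block, for counts over all probe sets only. The design took day 23 as independent of the choice of genes, but the study's table also used it, so member values of day 23 carry no test. Adjusted p-values are Benjamini-Hochberg over all probe sets. Pairing by cow rests on the replicate number in the labels, which do not name a cow. With group means removed, 18 of 18 pairs of the same number and day correlated, from 0.242 to 0.665. Pairs of unlike number were not compared with these. The fit was tested on simulated data. Named genes are the members, for each member's brightest probe set the 3 most alike genes, and of each list the 3 with the smallest unadjusted p on day 21. Members, lists and marker genes were chosen with earlier results of these data known. The number of arrays limits the precision. Python 3.11.15 and pandas 2.3.3 made the tables.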

Additional observations from a re-analysis of the deposited data

Results flagged for a closer look

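Values of 63 groups of 6 cows (levels and differences of the 7 brighter probe sets) were searched for a cow far from the nearest of the others, and chance alone flags about 1 in 20 such groups. There were 3, all of cow 1 on day 21. The FZD5 difference of 3.34 stood above the other cows, as did the difference of the second SLC34A2 probe set of 3.19. The second SLC34A2 probe set's level of 8.44 in cow 1's 2× gland stood below the other cows. Without cow 1 these differences averaged 0.49 and 0.32.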

How the results depend on the processing

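0 member probe sets passed an adjusted p of 0.05 for the day 40 difference under any alternative run, and the count of probe sets past it was 0 throughout, except for day 40 against day 23 in 2× glands, where leaving out a cow gave 0 to 1. Leaving out a cow turned the sign of small values. The ranges were −0.16 to 0.041 for FZD5 and −0.39 to 0.19 for the first SLC34A2 probe set on day 23, −0.10 to 0.081 for LRP2 and −0.10 to 0.052 for the second SLC34A2 probe set on day 40, and −0.020 to 0.32 for LRP2 and −0.19 to 0.061 for the second MSTN probe set in the change from day 23 to day 40. For day 40 against day 23 in 4× glands they were −0.055 to 0.35 for NEB, −0.21 to 0.27 for the first SLC34A2 probe set and −0.24 to 0.11 for the second SLC34A2 probe set. Array weights gave 0.075 for the change in the second MSTN probe set, and a dim NEB probe set gave −0.0062 in place of 0.81 on day 21.

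Counts at an unadjusted p under 0.05 moved more. For day 21, 3826 became 2479 with separate spreads, 2217 with array weights and 1569 without cow 1. For day 23, 635 became 277 with no replicate block, 1033 with array weights and 375 scaled to 5 reference genes. For day 40, 4910 became 2932 with no block, and 3108, 3139 and 2646 without cows 1, 3 and 6. For the change of the difference, 2855 became 1502 with no block, 1814 with reference genes, and 1549 and 1014 without cows 1 and 6. For day 40 against day 23, 1573 in 4× glands became 843 with no block, 866 with reference genes and 884 without cow 5, and 1941 in 2× glands became 1065 with no block, 1145 with reference genes, and 1206, 885, 3071 and 997 without cows 1, 3, 4 and 6. The causes were not tested. Values near background, as in the dim NEB probe sets, limit what can be seen.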
